A study of Mus musculus with 6 samples.

Results

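The MHC class II genes of mouse brain astrocytes are described here across 3 samples from vehicle-injected mice and 3 samples from mice made hyperglycemic with streptozotocin (STZ). The members were set by symbol, with earlier results of these data known. It holds 7 of the 45777 genes in the deposited table, namely H2-Aa, H2-Ab1, H2-Eb1, H2-DMa, H2-DMb1, Cd74 and Ciita, and all 7 had at least 1 count in every sample. STZ destroys the insulin-producing beta cells of the pancreas. Male C57BL/6 mice carrying Aldh1l1-cre/ERT2 and Rosa26-tdTomato fl/fl, a tamoxifen-inducible Cre driven from an astrocyte gene with a floxed red reporter, received tamoxifen and then, at 8 weeks of age, a single intraperitoneal injection of STZ in citrate buffer or of the buffer alone. The mice of both groups carried the same alleles and received the same tamoxifen. Brains were taken 21 days later, and tdTomato-positive cells from 3 mice were pooled into each sample before RNA-seq. The Cre and the sort define the cells, so any other cell that carried the reporter or passed the gate is part of the measurement.

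None of the 7 class II genes passed the test for a difference between STZ and vehicle. The fitted differences were 0.19 to 0.46 on the log2 scale, and the spread among the 3 STZ samples was wider than the difference for H2-Aa, H2-Ab1, H2-Eb1, H2-DMa, H2-DMb1, Cd74 and Ciita alike. STZ replicate 2 stood above the other 5 samples for all 7 genes, by 1.32 to 1.78 times the highest of them. Without that sample the differences of H2-Aa, H2-Ab1, H2-Eb1 and Cd74 took the opposite sign. Per transcript length, Cd74 stood above the astrocyte gene Aldh1l1 in all 6 samples, but below the more abundant astrocyte genes Gja1 and Slc1a3. The H2-DM genes and Ciita were far below Aldh1l1.

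MHC class II molecules are pairs of an alpha and a beta chain that display peptides from taken-up proteins to CD4+ T cells. The chains are assembled in the endoplasmic reticulum on the invariant chain, encoded by Cd74, which fills the peptide groove and directs the complex to endosomes. There proteases trim the invariant chain to a short remnant called CLIP, and the H2-DM dimer, encoded by H2-DMa with H2-DMb1 or H2-DMb2, exchanges CLIP for antigenic peptide. Ciita encodes the transactivator that controls the whole set and is itself induced by interferon gamma. Dendritic cells, B cells and macrophages are the classic carriers of these molecules. In the healthy brain they are found mainly on macrophages and dendritic cells at its borders, while resting microglia and astrocytes are known for low levels that inflammation can raise. C57BL/6 mice lack a working E alpha gene, so the E beta chain made from H2-Eb1 has no E alpha partner in this strain.

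Of the members, 6 lie on chromosomes 16 and 17 at positions given here in GRCm38.p6, the RefSeq build that matches mm10. The class II region of chromosome 17 holds H2-DMa (34119693 to 34139101), H2-DMb1 (34153191 to 34160229), H2-Ab1 (34263227 to 34269418), H2-Aa (34282744 to 34287823) and H2-Eb1 (34305867 to 34316674). Ciita lies on chromosome 16 (10480014 to 10531064) and Cd74 on chromosome 18. All are protein-coding genes. H2-DMa overlaps Brd2, and Ciita overlaps Dexi. Whether reads were counted by strand is not given in the sources used here, so reads in those overlaps could belong to either gene.

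Class II promoters are known for an X box, bound by the RFX complex, followed by a Y box, bound by NF-Y, on which CIITA is assembled. These boxes are shown because they are where the known regulators of class II genes act. RefSeq promoter windows from 250 bases before to 50 bases after the start site were used for 4 of the 7 members and for 8 of 10 class II genes searched. The letters searched were GNAAC for the core of the X box, followed after 10 to 40 bases by TGATTGG for the Y box. In the class II genes the strand searched was that of the gene, and the letters were chosen after the sequences had been read. In each line below the capitals mark these letters, and each sequence runs 5′ to 3′ on the strand of the gene.

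H2-Aa, minus strand, chr17:34287859-34287912: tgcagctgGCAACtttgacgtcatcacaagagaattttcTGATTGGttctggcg

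H2-Eb1, plus strand, chr17:34305768-34305820: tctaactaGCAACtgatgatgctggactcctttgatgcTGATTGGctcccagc

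H2-DMb1, plus strand, chr17:34153089-34153142: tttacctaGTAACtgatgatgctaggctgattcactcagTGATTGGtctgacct

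H2-Oa, plus strand, chr17:34092295-34092348: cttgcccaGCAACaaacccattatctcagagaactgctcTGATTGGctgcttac

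H2-Ob, plus strand, chr17:34238810-34238860: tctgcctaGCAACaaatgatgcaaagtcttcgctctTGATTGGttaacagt

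The X letters began 81 bases before the start site in H2-Aa, 91 in H2-Eb1 and 94 in H2-DMb1, and 25 or 26 bases separated them from the Y letters in these 3 members. The same pair was found in H2-Oa and H2-Ob, and in H2-Eb2 with a gap of 25 bases. The pair was not found in H2-DMb2, which held the Y letters, nor in either window of H2-DMa, which held no Y letters. The X letters on their own were not searched for in these windows. The pair occurred in 272 of 32851 mouse promoter windows, or 0.828%. The Y letters, with or without the X letters, occurred in 7.82% and the X letters in 84.8%. These shares count a match on either strand, whereas the class II genes were searched on the gene strand alone. A match of letters is a description of the window and not a measured binding site.

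**Figure D1:**
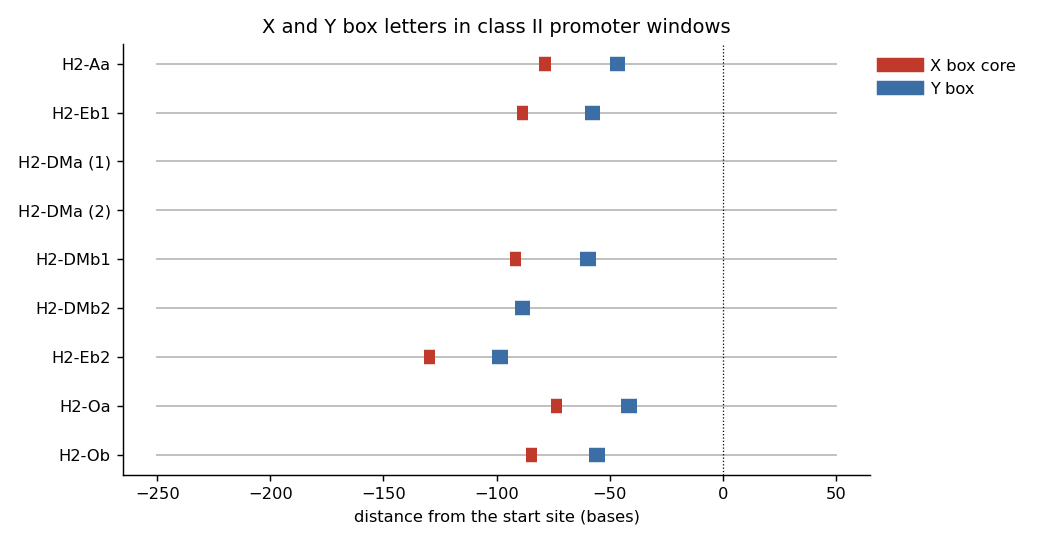
Position of the X box letters (red) and Y box letters (blue) in RefSeq promoter windows of class II genes, with the distance from the start site in bases on the x axis and 1 line per window. In the 6 genes with the pair, the X letters stand 76 to 132 bases before the start site with the Y letters after them. X letters are drawn only as part of a pair. H2-DMb2 has the Y letters without a pair, and H2-DMa has neither the pair nor the Y letters in its windows.

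To compare the members with each other, the authors' FPKM values were used, which are read numbers scaled to transcript length and library size and so allow levels of different genes to be ordered. Cd74 was highest at 424 ± 151 FPKM (SD, n = 6), which placed it at the 99.6th percentile of the 22337 genes tested. H2-Ab1 followed with 205 ± 71.0 FPKM, H2-Aa with 117 ± 46.9 FPKM and H2-Eb1 with 82.3 ± 30.8 FPKM. The pair that encodes H2-DM was lower, with 20.7 ± 6.90 FPKM for H2-DMb1 and 10.6 ± 4.99 FPKM for H2-DMa. Ciita had 0.853 ± 0.197 FPKM and stood at the 35.0th percentile. Over the samples, the FPKM ranges of neighbors in this order overlapped except for H2-Eb1 with H2-DMb1 and H2-DMa with Ciita. Within each of the 6 samples, however, every gene was above the next.

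The abundance of Cd74 was also set against an astrocyte gene in the same sample. Cd74 FPKM was 2.73, 2.26 and 3.10 times that of Aldh1l1 in the vehicle samples and 2.62, 5.46 and 2.78 times in the STZ samples. Aldh1l1 itself had 152, 137 and 139 FPKM in the vehicle samples and 134, 131 and 116 in the STZ samples. The denominator was thus lower in all 3 STZ samples, which raises their ratios. Its mean was 135 FPKM, and the water channel gene Aqp4, another astrocyte marker, had 182 FPKM, so the markers of the labelled cell type were present. The astrocyte markers Gja1, Slc1a3 and Slc1a2 had 1466, 1361 and 214 FPKM. Cd74 was thus below Gja1 and Slc1a3, the most abundant of these markers. The groups overlapped for this ratio (exact permutation test, two-sided, p = 0.5), and STZ replicate 2 alone held a value above 3.10.

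Next, the peptide-binding chains were compared between groups. Values are counts scaled to a common library size with normalization factors (normalized CPM), which compare one gene between samples. H2-Ab1, the A beta chain, had 258, 204 and 265 normalized CPM in the vehicle samples and 201, 427 and 205 in the STZ samples. STZ replicate 2 was the highest sample, while STZ replicates 1 and 3 lay with the lowest vehicle sample, so the groups overlapped. The fitted log2 fold change of H2-Ab1, STZ over vehicle, was 0.20 (SE 0.29, 95% interval -0.48 to 0.87), with an adjusted p of 0.833 (edgeR quasi-likelihood test, Benjamini-Hochberg adjustment over all 22337 genes). The interval spans folds from 0.717 to 1.83, so neither a lower level nor an increase of that size could be told from no difference with 3 samples per group. A change in RNA per cell and a change in the number of cells that carry the transcript cannot be told apart in pooled cells.

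H2-Aa, the A alpha chain that pairs with it, had 132, 103 and 139 normalized CPM in the vehicle samples and 110, 247 and 110 in the STZ samples. For this gene only STZ replicate 2 lay outside the range of the vehicle samples. Its log2 fold change was 0.32 (SE 0.31, 95% interval -0.41 to 1.05, edgeR adjusted p = 0.725). H2-Eb1, the E beta chain, had 140, 109 and 149 normalized CPM in the vehicle samples and 115, 248 and 113 in the STZ samples. The same single sample was high, and the groups overlapped. The log2 fold change of H2-Eb1 was 0.26 (SE 0.30, 95% interval -0.45 to 0.97, edgeR adjusted p = 0.782).

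Cd74, the invariant chain, had 582, 433 and 604 normalized CPM in the vehicle samples and 466, 953 and 433 in the STZ samples. Its lowest STZ and lowest vehicle samples were level, and its highest was STZ replicate 2. The means were 540 ± 92.9 in vehicle and 617 ± 291 in STZ (SD, n = 3 each), so the SD of the STZ group exceeded the difference between the means. The log2 fold change of Cd74 was 0.19 (SE 0.30, 95% interval -0.51 to 0.89, edgeR adjusted p = 0.841).

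**Figure D2:**
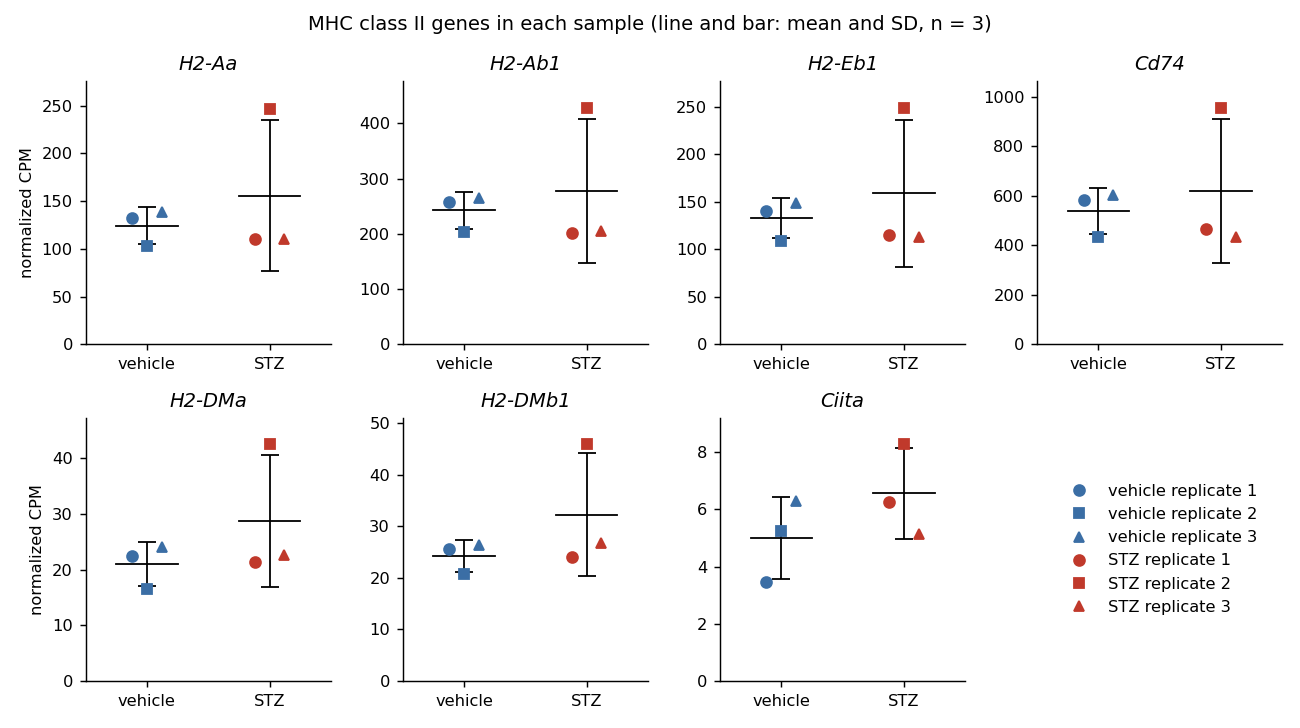
Normalized CPM of the 7 class II genes in each sample, 1 panel per gene, with vehicle samples in blue and STZ samples in red; lines and bars give the mean and SD of 3 samples, and each y axis starts at 0. The red square, STZ replicate 2, is the highest point in every panel, and the other STZ samples lie within or at the edge of the range of the vehicle samples.

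The genes of the peptide exchange factor came next. H2-DMa, its alpha chain, had 22.5, 16.5 and 24.1 normalized CPM in the vehicle samples and 21.3, 42.5 and 22.6 in the STZ samples. H2-DMb1, a beta chain, had 25.6, 20.8 and 26.4 normalized CPM in the vehicle samples and 24.0, 46.0 and 26.9 in the STZ samples. In both genes STZ replicate 2 was the highest sample, and the groups overlapped. The log2 fold change was 0.46 for H2-DMa (SE 0.28, 95% interval -0.19 to 1.10, edgeR adjusted p = 0.564) and 0.41 for H2-DMb1 (SE 0.24, 95% interval -0.15 to 0.98, edgeR adjusted p = 0.549). These were the largest fitted differences and the smallest unadjusted p-values among the 7 members, and they did not pass the test.

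Ciita, the transactivator, had 3.47, 5.24 and 6.28 normalized CPM in the vehicle samples and 6.27, 8.28 and 5.12 in the STZ samples. These rest on 186 to 482 reads per sample. STZ replicate 2 was again highest, the lowest sample was vehicle replicate 1, and the groups overlapped. The log2 fold change of Ciita was 0.39 (SE 0.27, 95% interval -0.25 to 1.03, edgeR adjusted p = 0.615).

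Across the set, 0 of the 7 members passed an adjusted p of 0.05 with a fold over 1.5 in edgeR, where 0.0224% of the genes tested were called. DESeq2, with which 1.05% of the genes were called, also called 0 of 7, with adjusted p-values from 0.477 to 0.915. None of the 7 had an unadjusted p below 0.05 by edgeR or DESeq2, against 11.3% and 10.3% of all genes. All 7 had a positive log2 fold change, compared with 51.9% of all genes, and their median was 0.32, compared with 0.012 over all genes tested. The members share their samples and a common regulator and are not replicates of one another, and this shared sign rested on 1 sample. Without STZ replicate 2, 3 of 7 were positive, against 52.3% of all genes, and the median was -0.17.

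The values without that sample were -0.17 for H2-Aa, -0.26 for H2-Ab1, -0.22 for H2-Eb1 and -0.26 for Cd74. H2-DMa and H2-DMb1 then had log2 fold changes of 0.06 and 0.07, and Ciita had 0.19. The adjusted p-values of edgeR were 0.703 to 0.952 in that fit. Thus the sign of the fitted difference of the 3 chain genes and Cd74 was set by STZ replicate 2, while no member passed the test with or without it.

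**Figure D3:**
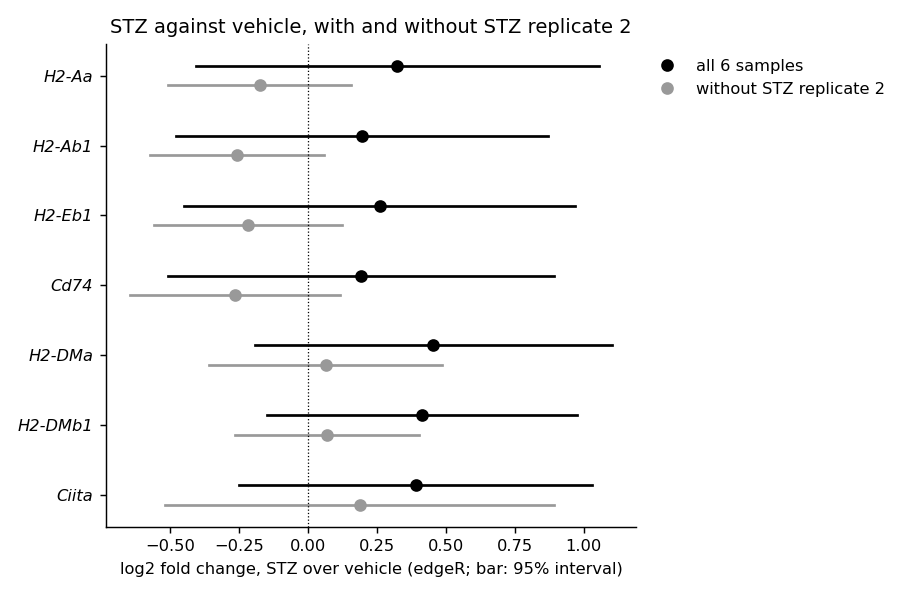
Log2 fold change of each class II gene, STZ over vehicle, from edgeR (x axis, points) with 95% intervals (bars), for all 6 samples (black) and without STZ replicate 2 (grey). Every interval covers 0; without the sample the points of H2-Aa, H2-Ab1, H2-Eb1 and Cd74 lie below 0 and those of H2-DMa, H2-DMb1 and Ciita above it.

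STZ replicate 2 was then compared with the remaining samples gene by gene. Its normalized CPM was 1.78 times the next highest sample for H2-Aa, 1.77 for H2-DMa, 1.71 for H2-DMb1, 1.67 for H2-Eb1, 1.61 for H2-Ab1, 1.58 for Cd74 and 1.32 for Ciita. It was therefore at least 1.5 times every other sample for 6 of the 7 members. Of 16252 genes with a mean of at least 1 normalized CPM, 0.621% were that far above the rest in STZ replicate 2. The same share was 0.954% for STZ replicate 1, 0.111% for STZ replicate 3, and 0.388%, 0.166% and 0.123% for vehicle replicates 1, 2 and 3, and no member was that far above the rest in any of those samples. STZ replicate 2 was the highest sample for 13.2% of these genes and for 7 of 7 members. The other samples were highest for 24.8%, 15.0% and 9.27% (vehicle replicates 1, 2 and 3), 18.7% (STZ replicate 1) and 19.0% (STZ replicate 3) of the genes. Its total count of 57148535 lay within the range of the series, 52529048 to 58749115.

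Among the other 5 samples, the class II chains and Cd74 varied by 1.32 to 1.39 times between lowest and highest, and Ciita by 1.81 times. Vehicle replicate 2 had the lowest level of H2-Aa, H2-Eb1, H2-DMa and H2-DMb1. The summed level of the 7 members was 1164, 891 and 1213 normalized CPM in the vehicle samples and 944, 1972 and 916 in the STZ samples.

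The proportions of the members within a sample were then examined, which do not depend on library scaling. These 16 ratios were computed after the levels had been seen, and with 3 samples against 3 the exact permutation test cannot give a p below 0.1. The share of H2-DM transcripts, as H2-DMa plus H2-DMb1 over the sum of H2-Aa, H2-Ab1 and H2-Eb1, was 0.0905, 0.0897 and 0.0912 in the vehicle samples and 0.106, 0.0959 and 0.116 in the STZ samples. All 3 STZ samples lay above all 3 vehicle samples (exact permutation test, two-sided, p = 0.1, adjusted p = 0.2 over the 16 ratios). STZ replicate 2, which was highest for each level, was the lowest of the STZ samples for this ratio, so the order of the groups did not depend on it. The order was seen on counts only. It rests in part on H2-DMa, whose ratio to H2-Ab1 overlapped between groups on the FPKM scale, as given below.

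Set against H2-Ab1 alone, H2-DMa went from a mean of 0.0862 in vehicle to 0.105 in STZ and H2-Aa from 0.513 to 0.555. H2-DMb1 over H2-Ab1 was 0.0991, 0.102 and 0.0995 in the vehicle samples and 0.119, 0.108 and 0.131 in the STZ samples. For each of these 3 members the groups did not overlap. Of all genes, 1.40% stood higher without overlap when divided by H2-Ab1, and 8.64% did so undivided. H2-Ab1 was highest in STZ replicate 2, so the division lowers genes there that are not also high in that sample. The 1.40% therefore cannot show whether 3 members are more than usual. All 3 member ratios share H2-Ab1 as denominator, which was lowest in STZ replicate 1. H2-Eb1 over H2-Ab1 overlapped between groups, with means of 0.546 and 0.569. Cd74 over H2-Ab1 had a mean of 2.22 in both groups and ranged by only 1.10 times over the 6 samples. Ciita over H2-Ab1 overlapped and ranged by 2.32 times.

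The proportions were also taken on another scale. On the authors' FPKM values H2-DMb1 over H2-Ab1 and H2-Aa over H2-Ab1 still did not overlap between groups, but H2-DMa over H2-Ab1 did, with H2-DMa at 5.52 FPKM in STZ replicate 1. The FPKM of H2-DMa per normalized CPM was 0.259 in that sample and 0.403 to 0.482 in the other 5. H2-DMb1 has a near copy in H2-DMb2, between which reads may be split. The sum of both over H2-Ab1 was 0.136, 0.137 and 0.141 in vehicle and 0.156, 0.142 and 0.172 in STZ, again without overlap.

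**Figure D4:**
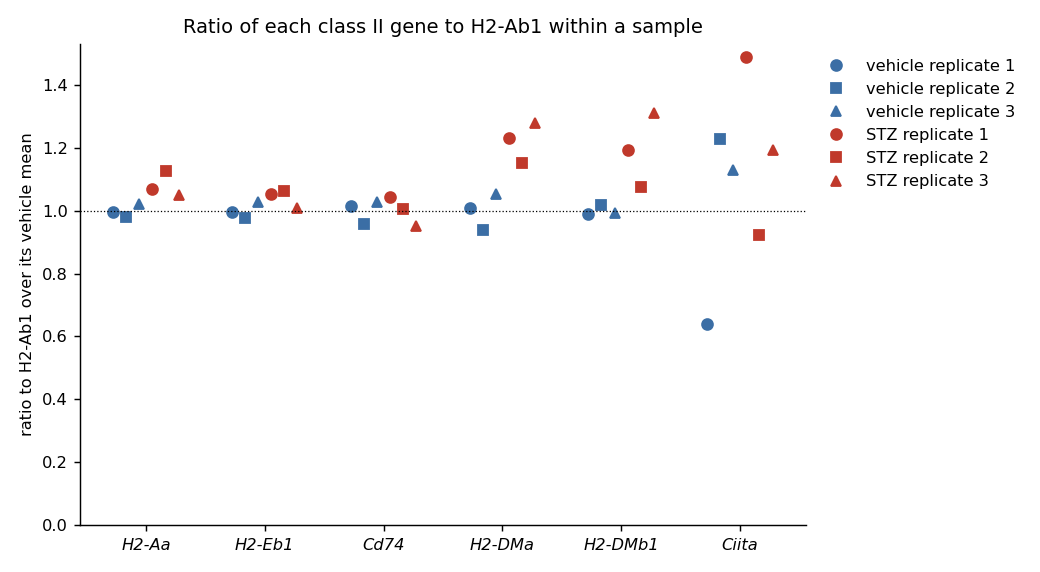
Ratio of each class II gene to H2-Ab1 within a sample, divided by the mean ratio of the vehicle samples (y axis, from 0), with vehicle samples in blue and STZ samples in red. The red points lie above the blue ones for H2-Aa, H2-DMa and H2-DMb1, and the colors mix for H2-Eb1, Cd74 and Ciita.

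The remaining class II genes were read from the same fit. H2-DMb2, the other H2-DM beta chain, had 9.44, 7.13 and 10.9 normalized CPM in the vehicle samples and 7.30, 14.6 and 8.43 in the STZ samples, with STZ replicate 2 highest and the groups overlapping (log2 fold change 0.14, edgeR adjusted p = 0.880). H2-Oa and H2-Ob encode H2-O, which holds H2-DM in check and is known from B cells. H2-Oa had 1.77, 1.37 and 2.69 normalized CPM in vehicle and 0.709, 2.11 and 1.60 in STZ (log2 fold change -0.40, edgeR adjusted p = 0.759). H2-Ob had 3.47, 1.93 and 3.68 in vehicle and 1.80, 2.92 and 2.26 in STZ (log2 fold change -0.38, edgeR adjusted p = 0.669).

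In both H2-O genes the groups overlapped, and STZ replicate 2 was not the highest of the 6 samples. Relative to H2-DM, H2-O transcripts were 0.109, 0.0885 and 0.126 in the vehicle samples and 0.0553, 0.0569 and 0.0782 in the STZ samples. All 3 STZ samples lay below all 3 vehicle samples (exact permutation test, two-sided, p = 0.1, adjusted p = 0.2), a ratio chosen after the values were seen. The B cell markers Cd79a, Cd79b and Ms4a1 all had lower means in STZ, with log2 fold changes from -1.90 to -0.31. Of these, Cd79a passed DESeq2 (log2 fold change -1.85, DESeq2 adjusted p = 0.0133, edgeR adjusted p = 0.289). The part of B cell RNA in the H2-O values was not tested. H2-Eb2 was at 0 counts in all 3 vehicle samples and had 7, 4 and 7 counts in the STZ samples, too few for a statement given its similarity to H2-Eb1.

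Genes that prepare class II molecules for peptide were examined next, with 12 genes of the loading and turnover list tested. None was called by edgeR or DESeq2, 3 had a positive and 9 a negative log2 fold change, and the median was -0.13, against 0.012 for all genes. Of all genes, 51.9% had a positive log2 fold change. Ctss, the cathepsin that trims the invariant chain to CLIP, had 143, 113 and 139 normalized CPM in the vehicle samples and 145, 217 and 122 in the STZ samples. It was thus highest in STZ replicate 2, and its groups overlapped (log2 fold change 0.29, edgeR adjusted p = 0.619). The reductase gene Ifi30, or GILT, had a log2 fold change of 0.09 and the cystatin gene Cst3 of 0.03.

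Of the 12 genes, 3 had an unadjusted p below 0.05 by edgeR, against 11.3% of all genes, and all 3 were lower in STZ. Ctsd, an aspartic protease of lysosomes, had a log2 fold change of -0.23, Sppl2a, which cleaves the last membrane stub of the invariant chain, of -0.26, and March8, a ubiquitin ligase that removes class II from the surface, of -0.34. Their adjusted p-values by edgeR were 0.441, 0.408 and 0.390, so none passed. With Ctsb and Lamp1, 5 of the 12 stood lower in STZ without overlap, against 9.85% of all genes. March1, the ligase known for class II turnover in dendritic and B cells, had a log2 fold change of -0.29 and an adjusted p of 0.698 by edgeR.

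Among 10 transcription factor genes of the class II promoters, 0 were called by either tool. Of these, 6 had a positive log2 fold change, against 51.9% of all genes, and the median was 0.10. The RFX subunit genes Rfx5 and Rfxap had log2 fold changes of -0.02 and -0.04, and Rfxank had 0.15. Nfyb, an NF-Y subunit, had 27.7, 28.0 and 27.4 normalized CPM in vehicle and 32.2, 32.2 and 31.9 in STZ. The groups did not overlap, as for 18.5% of all genes, made up of 8.64% higher and 9.85% lower in STZ (log2 fold change 0.21, edgeR adjusted p = 0.349, DESeq2 adjusted p = 0.381). Spi1, the myeloid factor PU.1, had 23.5, 17.9 and 31.5 normalized CPM in vehicle and 36.3, 45.5 and 21.3 in STZ, highest in STZ replicate 2 with overlapping groups (edgeR adjusted p = 0.552).

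Interferon gamma, the known inducer of Ciita, acts through the receptor genes Ifngr1 and Ifngr2 and the kinases Jak1 and Jak2. Of the 14 genes of this list, 12 had a positive log2 fold change, against 51.9% of all genes. The median was 0.11, and 0 were called by edgeR. Irf1, a transcription factor that interferon gamma induces, had a log2 fold change of 0.11 (edgeR adjusted p = 0.752). Iigp1, an interferon-induced GTPase, had 0.727, 1.27 and 1.57 normalized CPM in vehicle and 3.66, 3.08 and 2.03 in STZ, without overlap. It passed DESeq2 (adjusted p = 0.0269) but not edgeR (log2 fold change 1.29, SE 0.36, adjusted p = 0.302). Irf2, Irgm1 and Igtp also did not overlap between groups, with log2 fold changes of 0.33, 0.30 and 0.28 and edgeR adjusted p-values of 0.341 to 0.407. Thus 4 of the 14 genes stood higher in STZ without overlap, against 8.64% of all genes. Of the 14 genes, 7 were highest in STZ replicate 2, Irf2, Irgm1 and Igtp among them, whereas Iigp1 was highest in STZ replicate 1.

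The MHC class I pathway, which presents peptides from inside the cell, gave a comparison with another arm of antigen presentation. Of 10 genes, 0 were called by edgeR or DESeq2. Among them, 9 had a positive log2 fold change, against 51.9% of all genes, and the median was 0.18. H2-D1 had 191, 186 and 284 normalized CPM in vehicle and 343, 372 and 194 in STZ, so that STZ replicates 1 and 2 were both high (log2 fold change 0.46, edgeR adjusted p = 0.542). B2m, the light chain of class I, had 189, 180 and 227 in vehicle and 220, 290 and 187 in STZ (log2 fold change 0.23, edgeR adjusted p = 0.628). H2-K1 and Tapbp had log2 fold changes of 0.13 and 0.03. In STZ replicate 1, where H2-D1 was high, the summed class II level of 944 lay within the vehicle range. Nlrc5, the class I counterpart of Ciita and named here after its values were seen, had 1.01, 1.02 and 0.908 normalized CPM in vehicle and 1.96, 1.46 and 1.57 in STZ, without overlap (log2 fold change 0.76, edgeR adjusted p = 0.334). It was the only 1 of the 10 genes to stand higher without overlap, against 8.64% of all genes.

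Of 6 costimulation genes tested, 0 were called by edgeR or DESeq2, and 4 had a positive log2 fold change, against 51.9% of all genes. Cd86, a ligand of CD28 on T cells, had a log2 fold change of -0.19, Icosl of 0.18, Cd83 of -0.01 and Cd274, the inhibitory ligand PD-L1, of 0.50, with edgeR adjusted p-values of 0.597 to 0.992.

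Markers of other cells that carry class II were read in the same libraries, as sums of normalized CPM. The 11 microglia markers summed to 1176, 815 and 860 in vehicle and to 862, 1104 and 799 in STZ replicates 1, 2 and 3. Among them, the complement genes C1qb, C1qc and C1qa had 90.9, 84.3 and 50.5 FPKM, beside 135 for Aldh1l1. The microglia sum was highest in vehicle replicate 1, where the class II genes were not highest, and next highest in STZ replicate 2, where they were. Of the 11 markers, 4 were highest in STZ replicate 2, against 13.2% of genes with a mean of at least 1 normalized CPM. None of the markers of any list was at 0 in every sample, and the part of microglia in the class II values was not tested.

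The 9 dendritic cell markers summed to 63.1 to 75.8 in vehicle and to 65.7, 110 and 71.4 in STZ replicates 1, 2 and 3. They were thus highest in the sample that was highest for class II, where Cd209a was the largest of them. A sum without Cd209a was not taken. Of the 9 markers, 6 were highest in STZ replicate 2, against 13.2% of genes with a mean of at least 1 normalized CPM. Zbtb46, by contrast, was highest in vehicle replicate 1. Cd209a, a lectin of monocyte-derived and conventional dendritic cells, had 22.2, 18.4 and 27.8 normalized CPM in vehicle and 18.2, 49.8 and 26.3 in STZ (log2 fold change 0.46, edgeR adjusted p = 0.637). Without STZ replicate 2 its log2 fold change was -0.04. Siglech, found on plasmacytoid dendritic cells and microglia, had a log2 fold change of 0.15, Zbtb46 of -0.08 and Batf3 of 0.50, and 0 of the 9 were called by edgeR or DESeq2. The part of dendritic cell RNA in the class II level of STZ replicate 2 was not tested.

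The 7 border macrophage markers summed to 35.2 to 67.6 in vehicle and 30.6 to 72.6 in STZ, with the highest sum in STZ replicate 1. F13a1, the coagulation factor XIII A gene and the most abundant of them by FPKM, had 24.2, 10.9 and 21.6 normalized CPM in vehicle and 48.3, 30.8 and 15.0 in STZ (log2 fold change 0.73, edgeR adjusted p = 0.557). Without F13a1, again chosen after the values were seen, the sums were 43.3, 24.3 and 34.7 in vehicle and 24.3, 21.7 and 15.6 in STZ, highest in vehicle replicate 1. Of the 7, 6 had a negative log2 fold change, and the mannose receptor gene Mrc1 passed DESeq2 (log2 fold change -0.82, DESeq2 adjusted p = 0.0329, edgeR adjusted p = 0.318). The 5 B cell markers summed to 3.45 to 9.93 in vehicle and 2.06 to 3.64 in STZ, and the 5 T cell markers to 1.31 to 2.97 and 0.460 to 1.68. The sums of both lymphocyte lists in STZ replicate 2 lay within the range of the other samples.

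The 4 monocyte markers summed to 31.7 to 104 in vehicle and 126 to 401 in STZ, without overlap, led by Chil3 (log2 fold change 2.87, edgeR adjusted p = 0.289, DESeq2 adjusted p = 0.0686). Ccr2, the chemokine receptor of classical monocytes, had 25.4, 15.3 and 24.1 normalized CPM in vehicle and 28.3, 48.9 and 26.3 in STZ, highest in STZ replicate 2 (log2 fold change 0.68, edgeR adjusted p = 0.428). Plac8 was also highest in STZ replicate 2, with 14.6. Ly6c2 had 4.49, 4.28 and 13.7 in vehicle and 22.8, 21.2 and 11.6 in STZ. It was highest in STZ replicate 1, and its groups overlapped (log2 fold change 1.30, edgeR adjusted p = 0.397). The monocyte sum was highest in STZ replicate 1, where Chil3 alone had 341 normalized CPM. Without Chil3, an alternative chosen after the values were seen, the other 3 markers summed to 33.1, 22.9 and 45.6 in vehicle and 59.6, 84.7 and 41.6 in STZ. The groups then overlapped and STZ replicate 2 was highest, with Ccr2 the largest part of its sum. Which sample was highest thus depended on the marker left out. The 7 endothelial markers summed to 33.1 to 113 in vehicle and 104 to 197 in STZ, with Nostrin passing DESeq2 (adjusted p = 0.0497) and not edgeR (log2 fold change 1.31, adjusted p = 0.376). The 6 astrocyte markers summed to 14823 to 17239 in vehicle and 13542 to 14823 in STZ. Of these, 3 (Aldh1l1, Aqp4 and Slc1a2) stood lower in STZ without overlap, against 9.85% of all genes, and 0 were called by edgeR or DESeq2. The part of these cells in the class II values was not tested.

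**Figure D5:**
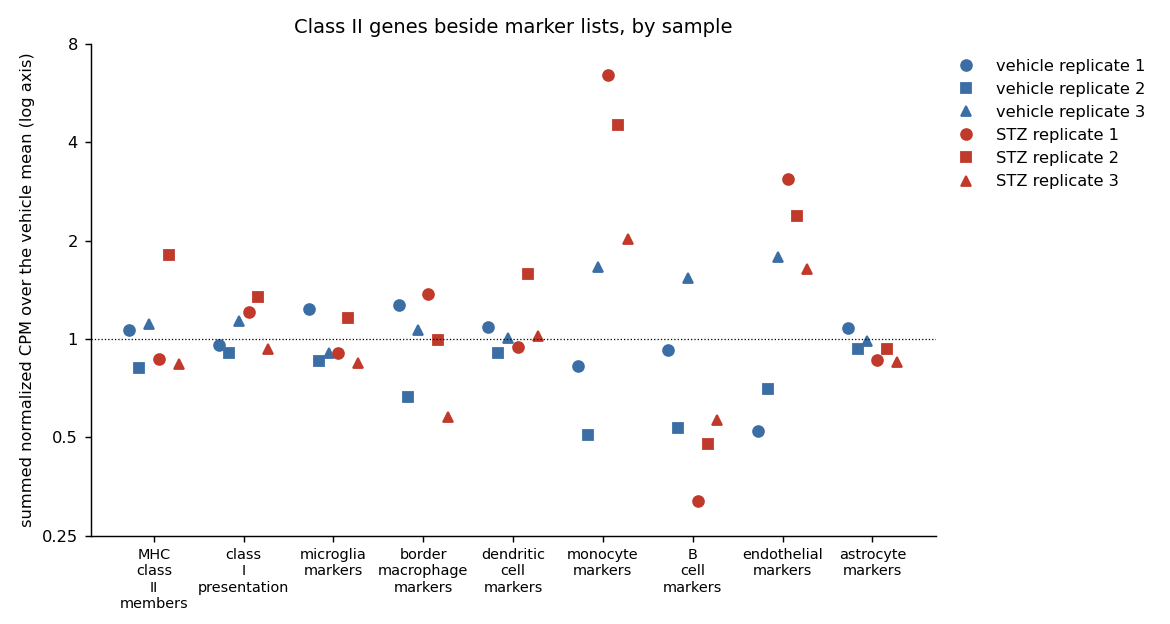
Summed normalized CPM of the class II members, of class I genes and of cell type markers in each sample, divided by the mean of the vehicle samples (log axis). STZ replicate 2 (red square) is highest for the class II members, the class I genes and the dendritic cell markers, and STZ replicate 1 (red circle) for the endothelial markers and for the monocyte and border macrophage sums, which Chil3 and F13a1 lead there.

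Finally, genes whose levels followed those of the class II set were sought among 16252 genes, by Pearson correlation over the 6 samples with the mean log2 CPM of the 7 members. The 10 closest genes outside the set were Actb, Pold4, Tpm3-rs7, Gm31145, Stx8, Gm12854, C330018D20Rik, Fam49b, Tnfrsf13b and Zic2, with r from 0.993 to 0.963. Their highest and lowest samples differed by 1.13 to 1.77 times, less than for any of the 7 members. Without the pair of samples farthest from the median, STZ replicate 2 and vehicle replicate 3, their r was 0.362 to 0.947, so part of the likeness rests on those samples. The correlation is a description over 6 samples that share the same libraries.

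Actb, the beta-actin gene, led the list and kept an r of 0.947 without those samples. Its values were 2069, 1872 and 2125 normalized CPM in vehicle and 1962, 2669 and 2010 in STZ. Of the other listed genes, Ctss had an r of 0.951 and rank 26, H2-DMb2 0.944 and rank 35, and Ifngr2 0.941 and rank 37. Cd209a had 0.941 and rank 40, and B2m 0.932 and rank 53. The microglia marker Aif1, named here after its values were seen, had 0.930 and rank 56. Without STZ replicate 2 and vehicle replicate 3 their r was 0.853, 0.784, -0.444, 0.391, 0.409 and 0.910 in that order. Among the members themselves, H2-Aa was closest to the mean of the set with an r of 0.992, and Ciita was the least like it with an r of 0.656 and rank 1033. Without the same pair of samples Ciita had an r of -0.52 with the set of which it is part, whereas the other 6 members had 0.681 to 0.905.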

How the data were processed

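RNA-seq of sorted astrocytes was deposited for 3 vehicle and 3 STZ samples, each a pool of 3 mice. The submitters' processing notes name Trimmomatic 0.38, HISAT2 2.1.0, StringTie 2.1.3b and mm10. The authors deposited read counts, FPKM and TPM per gene. Library totals were 52529048 to 58749115 counts, and replicates differed by more than sampling noise. The counts were tested here with edgeR 4.0.16 (quasi-likelihood test, TMM, Benjamini-Hochberg over 22337 genes with a count in every sample, adjusted p of 0.05 and fold of 1.5). Its p-values measure only the spread between these pools. Alternatives were DESeq2 1.42.0 and its size factors, other filters, a replicate block, limma 3.58.1 on log2(TPM + 1) and log2(TPM + 0.1), and each sample left out. The authors' deposited TPM and FPKM served for limma and for levels between genes, respectively. Members and lists were chosen with earlier results of these data known, and marker sums without Chil3 or F13a1 were added after the values were seen. Named are all members, genes of the other class II, loading, transcription factor and interferon lists, up to 4 most abundant or called genes of the remaining lists, and the 10 genes most like the members; others are said to be chosen after their values were seen. Promoter sequences are from RefSeq GRCm38.p6; those of H2-Ab1, Ciita and Cd74 were not used here, nor were H2-Ea and protein sequences. Some genes of these lists are not reported here by name.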

Additional observations from a re-analysis of the deposited data

How the results depend on the processing

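No class II member was called under any alternative run (DESeq2, its size factors, no filter, filterByExpr, the replicate block, limma on TPM with either pseudocount, and each sample left out). Over all genes, DESeq2 called 234, the replicate block 0 (1793 with unadjusted p below 0.05), limma 0 with either pseudocount (2635 and 2612), and leaving out 1 sample 0 to 1, against 5; the cause was not tested. DESeq2 called 4 genes of the companion lists, Iigp1, Mrc1, Cd79a and Nostrin, against 0. Leaving out 1 sample moved the log2 fold change between -0.17 and 0.52 for H2-Aa, -0.26 and 0.38 for H2-Ab1, -0.22 and 0.45 for H2-Eb1, and -0.26 and 0.39 for Cd74, with the negative value in each case without STZ replicate 2. H2-DMa ranged from 0.06 to 0.63, H2-DMb1 from 0.07 to 0.59 and Ciita from 0.18 to 0.58. With limma on TPM, H2-DMa had 0.18. Of the 10 most like genes, 3 to 10 stayed among the 100 most like when 1 sample was left out, 3 without STZ replicate 2. Same-numbered samples had correlated deviations of -0.10, -0.16 and -0.18, so the numbers do not pair the samples; with the replicate block the members had log2 fold changes of 0.10 to 0.41 and edgeR adjusted p-values of 0.709 to 0.947. With 3 pools per group, the intervals of the members reached folds of 1.83 to 2.15 upward.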
